A study of Homo sapiens with 21 samples.

Results

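The type I interferon response genes followed here are a list of 40 genes, and they were found by gene name in the count tables of a study of EGFR inhibitor tolerance and of the microRNAs miR-147b and miR-21. Each of the 40 names matched 1 of the 56632 gene identifiers, so 40 of 40 members were followed, in 21 libraries of 5 human cell lines. All 40 passed the filter on low counts in every fit. HCC827 and PC9 are lung adenocarcinoma lines driven by mutant EGFR, H1975 and PC9ER are EGFR-mutant lung cancer lines that the labels give as positive for the T790M resistance mutation, and AALE is an immortalized tracheobronchial epithelial line that serves as a nonmalignant airway model. The tolerance groups were gefitinib-tolerant, osimertinib-tolerant and parental cells of HCC827 and PC9, where the tolerant cells had 14 days of drug and the doses are read from the labels as 40 nM gefitinib or 20 nM osimertinib. The overexpression groups were AALE, HCC827 and PC9 infected with lentivirus for miR-147b, miR-21 or a scrambled control and selected with puromycin. The knockdown groups were H1975 and PC9ER with miR-147b knockdown, miR-21 knockdown or a knockdown control. Each group had 1 library per line, so the lines are the replicates and no line had 2 libraries of the same condition. No label tells whether the libraries stem from separate cultures, and the p-values then measure only the spread between these libraries, which may be technical in part. Gefitinib is a reversible and osimertinib a covalent inhibitor of EGFR.

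Type I interferons are secreted when a cell senses foreign or misplaced nucleic acid. They bind the receptor of IFNAR1 and IFNAR2, the kinases JAK1 and TYK2 then activate STAT2, which joins IRF9 in a complex that binds interferon-stimulated response elements in the promoters of the genes followed here. Their products sense viral RNA, block virus entry, translation and release, modify proteins with ISG15 and feed back on the pathway.

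The response element itself was visible in the promoters. RefSeq promoter windows on GRCh38.p14, from 250 bases before to 50 after the start, were on hand for 30 of the 40 members. The core motif of the element, GAAA and GAAA parted by 2 bases of any kind and searched on both strands, lay in 19 of these 30 windows (63.3%), against 996 of all 27305 windows (3.65%). The gamma-activated site motif TTCNNNGAA lay in 10 of the 30 (33.3%), against 7.88% of all windows. The 8 windows that follow are shown because these genes were called in line comparisons described further on. SAMD9 was called only in the comparisons with PC9ER. They are written 5′ to 3′ on the gene's strand, and capitals mark complete matches of the core motif or of its reverse complement, which may overlap each other.
ISG15, a ubiquitin-like modifier (chr1:1013359-1013418, plus strand): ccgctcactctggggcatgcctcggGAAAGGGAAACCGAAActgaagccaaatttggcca
IFIT1, a binder of foreign RNA caps (chr10:89392482-89392541, plus strand): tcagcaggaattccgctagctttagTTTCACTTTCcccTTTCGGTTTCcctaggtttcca
IFI27, a small membrane protein (chr14:94110603-94110662, plus strand): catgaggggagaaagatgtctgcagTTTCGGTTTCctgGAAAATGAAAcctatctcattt
IFI6, a small membrane protein related to IFI27 (chr1:27672314-27672373, minus strand): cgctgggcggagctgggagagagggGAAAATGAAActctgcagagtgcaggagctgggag
OAS3, an oligoadenylate synthetase (chr12:112938306-112938365, plus strand): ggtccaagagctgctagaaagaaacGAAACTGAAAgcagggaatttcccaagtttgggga
BST2, also called tetherin (chr19:17405726-17405785, minus strand): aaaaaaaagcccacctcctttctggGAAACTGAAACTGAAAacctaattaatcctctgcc
SAMD9, an antiviral and growth-restraining protein (chr7:93118081-93118140, minus strand): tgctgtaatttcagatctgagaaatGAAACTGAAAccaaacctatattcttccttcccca
IFIH1, the RNA sensor MDA5 (chr2:162318809-162318868, minus strand): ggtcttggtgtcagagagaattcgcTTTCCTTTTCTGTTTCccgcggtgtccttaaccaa
In ISG15, BST2 and IFIH1 overlapping matches form a run of repeated elements, and in IFIT1 and IFI27 a pair of matches lies a few bases apart.
IRF1, which had no such match, held the other motif, and capitals mark TTCNNNGAA (chr5:132490864-132490922, minus strand): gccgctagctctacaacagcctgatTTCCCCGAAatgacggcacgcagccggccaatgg
A match of letters is a description, not evidence of binding. The 11 windows with no match of the core motif were those of STAT2, IRF9, IRF1, OAS1, HERC6, IFI35, RSAD2, CMPK2, XAF1, SAMD9L and PARP9, and no window was on hand for DDX58, DHX58, IRF7, OAS2, OASL, IFIT2, IFITM2, MX2, USP18 and TRIM22.

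The 2 microRNAs whose levels were changed are shown by their RefSeq mature sequences, with the seed (bases 2 to 8) in capitals. The seed is a main guide to a microRNA's targets, and these 2 seeds differ. No search for targets was made. The labels do not name an arm.
hsa-miR-147b-3p (chr15:45433098-45433118, plus strand): gUGUGCGGaaaugcuucugcu
hsa-miR-21-5p (chr17:59841273-59841294, plus strand): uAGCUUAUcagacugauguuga

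Expected counts summed to 15516460 to 29694050 per library, and CPM, the unit of level used here, is an expected count relative to that sum. The MIR147B row stood at 23.0 CPM in AALE, 13.0 in HCC827 and 2.83 in PC9 with miR-147b overexpression, and at 0 in the other 18 libraries. The MIR21 row held under 1 count in each library, so these messenger RNA libraries do not check miR-21 or either knockdown. All 5 epithelial markers reached 1 CPM in every library. The 4 basal airway markers summed to 5893 to 11680 CPM in AALE, the 4 alveolar markers to 99.1 to 293 CPM in HCC827 and 35.7 to 51.1 CPM in H1975, and the 5 leukocyte markers to 0.911 to 26.3 CPM anywhere. The alveolar marker SFTPC stayed under 0.5 CPM in every line. The control and miR-147b knockdown libraries of PC9ER stood apart from the other libraries: over 19287 genes their log2 difference from the mean of the PC9 controls followed the GC content of the longest transcript (Spearman's rho of 0.557 and 0.54), against 0.01 in the miR-21 knockdown library of PC9ER.

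The summed level of the 40 genes ranged widely between cell lines. Their CPM summed to 2303 to 5925 in the 6 HCC827 libraries, 1182 to 2672 in the 3 H1975 libraries, 518.1 to 683.1 in PC9ER, 486.8 to 732.4 in AALE and 427.2 to 811.4 in the 6 PC9 libraries. HCC827 and H1975 stood above the other 3 lines with no overlap. None of the 40 fell under 1 CPM in any HCC827 or H1975 library, while 5 to 8 did in PC9 libraries, 7 to 11 in PC9ER and 1 to 5 in AALE. Over all libraries of both lines and with no overlap, HCC827 lay above PC9 for 32 members and below it for 0 (14.1% and 13.8% of all 20493 genes), and above AALE for 32 and below for 0 (19.3% and 27.1%). H1975 lay above PC9 for 26 and below for 2, MX2 and HERC5 (22.9% and 25.7%), and above PC9ER for 27 and below for 3, DHX58, STAT2 and MX2 (29.3% and 30.9%). Between the pair of high lines, HCC827 lay above H1975 for 12 members and below for 1, IFITM2 (22.6% and 19.8%).

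**Figure D1:**
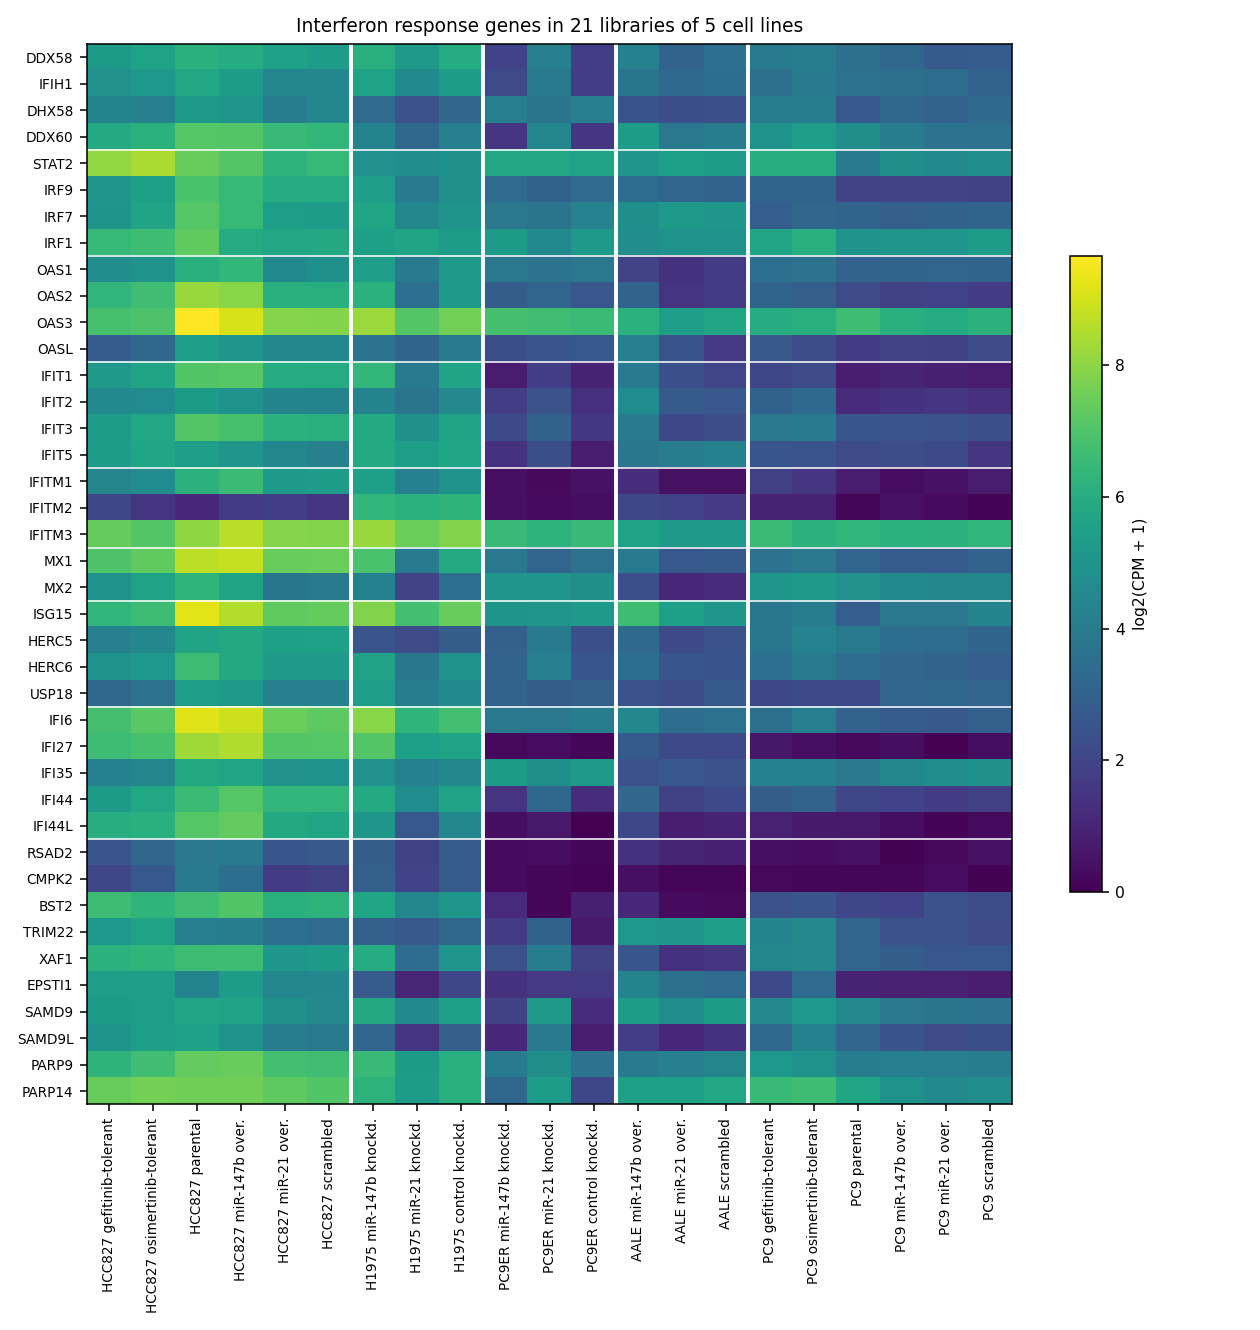
Levels of the 40 interferon response genes in the 21 libraries, as log2(CPM + 1) by color, with libraries along the x axis grouped by cell line and genes down the y axis grouped by role; white lines part the lines and the roles. The HCC827 and H1975 columns are brighter for most genes, IFITM2 is bright in H1975, and within HCC827 the parental and miR-147b columns are the brightest, with summed levels of 5925 and 5301 CPM.

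Basal levels were compared with edgeR's quasi-likelihood test on the 7 control libraries, with Benjamini-Hochberg adjustment over all genes and a call at an adjusted p under 0.05. The spread in this fit came from the parental and scrambled pairs of HCC827 and of PC9, and lines with 1 control were assumed to vary like them. In HCC827 against PC9, 35 of the 40 genes were higher and 0 lower, where 8.25% of all 20949 genes tested were higher and 8.84% lower. The median log2 fold change of the 40 was 3.25, against 0.00 over all genes. All 40 had positive values, and those of the other 5 were 0.83 for MX2, 0.97 for IFI35, 1.02 for SAMD9, 1.07 for TRIM22 and 1.52 for IRF1.

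Among the RNA sensors, DDX58, the cytoplasmic sensor RIG-I, was at 68.4 CPM in parental and 38.1 CPM in scrambled HCC827, against 10.9 and 6.05 CPM in parental and scrambled PC9 (log2 fold change 2.56 ± 0.44 SE, edgeR adjusted p = 0.00545, n = 2 libraries per line). IFIH1, with its run of motif matches, had 54.1 and 21.4 CPM in HCC827, against 11.2 and 7.28 CPM in PC9 (1.94 ± 0.48, adjusted p = 0.0266). The lines did not overlap for either sensor, and the parental HCC827 library was the highest of the 4. Of the transcription factors, IRF9, the DNA-binding partner of STAT2, was at 116 and 59.7 CPM in HCC827, against 2.93 and 2.69 CPM in PC9 (4.88 ± 0.45, adjusted p = 0.000281). STAT2 was at 169.8 and 87.3 CPM in HCC827, against 14.7 and 25.7 CPM in PC9 (2.58 ± 0.45, adjusted p = 0.00555). IRF1, a factor also driven by type II interferon, did not pass, at 154 and 55.6 CPM in HCC827, against 29.2 and 39.4 CPM in PC9 (adjusted p = 0.0603). IRF9 and STAT2 thus lay apart between lines, while the IRF1 level of scrambled HCC827 lay nearer to the PC9 controls than to parental HCC827.

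Among the effector genes, OAS1, an oligoadenylate synthetase that senses double-stranded RNA, was at 65.3 CPM in parental and 27.7 CPM in scrambled HCC827, against 7.15 and 7.68 CPM in PC9 (log2 fold change 2.55 ± 0.45). IFIT1 was at 129 and 59.8 CPM in HCC827, against 0.667 and 0.666 CPM in PC9 (7.04 ± 0.54, adjusted p = 0.000152). MX1, a dynamin-like antiviral GTPase, was at 416 and 174 CPM in HCC827, against 7.95 and 7.30 CPM in PC9 (5.18 ± 0.49). All 3 were higher in each HCC827 control than in each PC9 control, and the PC9 controls were close to each other. Of the membrane proteins that restrict virus entry, IFITM1 had 71.8 and 38.0 CPM in HCC827, against 0.699 and 0.644 CPM in PC9 (6.26 ± 0.50), and IFITM3 at 258 and 228 CPM, against 79.8 and 79.9 CPM (1.52 ± 0.30). IFITM1, IFITM2 and IFITM3 are related genes of similar sequence, and RSEM splits the reads that they share, so their single values are uncertain. ISG15 was at 619 and 164 CPM in HCC827, against 6.34 and 19.2 CPM in PC9 (4.83 ± 0.76, adjusted p = 0.00339). USP18, which removes ISG15 and restrains the receptor, was at 41.7 and 17.3 CPM in HCC827, against 3.55 and 7.97 CPM in PC9 (2.26 ± 0.55, adjusted p = 0.0250). For both, the parental and scrambled libraries of a line differed by over 2-fold, and in opposite directions in HCC827 and PC9. IFI27 had the largest fold change of the 40, with 309 and 135 CPM in HCC827, against 0.159 and 0.298 CPM in PC9, where it rested on 4.30 and 6.72 counts (9.82 ± 0.67, adjusted p = 0.000104). IFI44 was at 95.2 and 81.5 CPM in HCC827, against 3.13 and 2.55 CPM in PC9 (4.87 ± 0.38, adjusted p = 0.000162). BST2, which tethers budding virus to the cell, was at 103 and 74.6 CPM in HCC827, against 3.11 and 3.86 CPM in PC9 (4.58 ± 0.39, adjusted p = 0.000204). IFI27, IFI44 and BST2 were also higher in each of the 6 HCC827 libraries than in any of the 6 PC9 libraries.

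**Figure D2:**
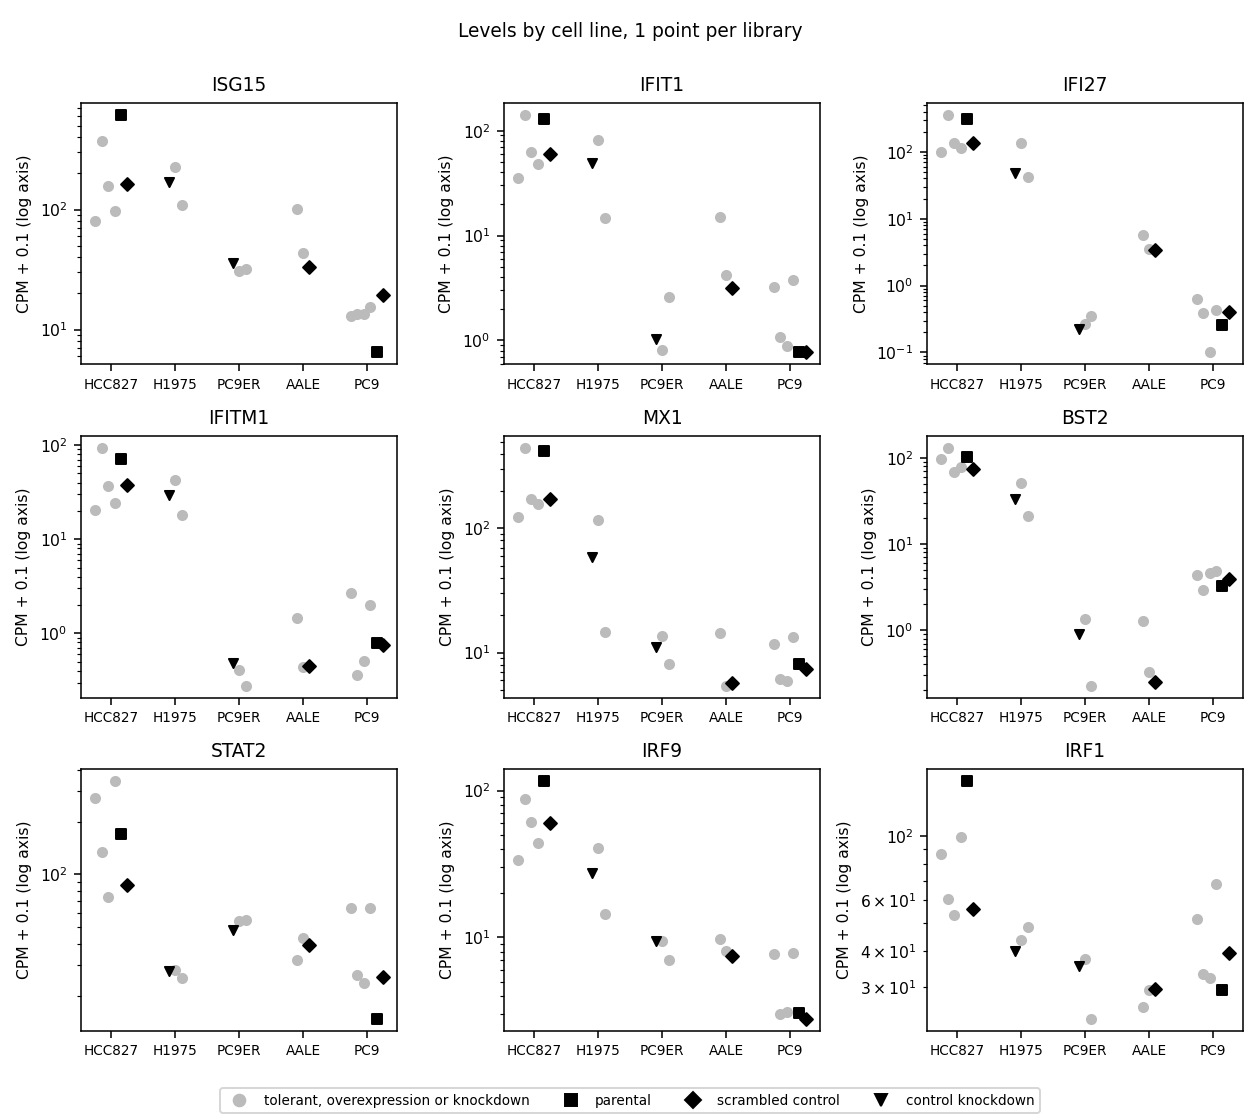
Levels of 9 interferon response genes by cell line, with CPM + 0.1 on a log y axis and 1 point per library; black squares, diamonds and triangles are parental, scrambled and control knockdown libraries and gray circles the others. IFIT1, IFI27 and IFITM1 stand highest in HCC827 and H1975, BST2 in AALE and PC9ER lies below PC9, and STAT2 is no higher in H1975 than in PC9ER or AALE.

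In H1975 against PC9, 25 of the 40 were higher and 0 lower, where 5.89% of all genes tested were higher and 6.40% lower, and the median log2 fold change of the 40 was 2.21. The H1975 control was a knockdown control and those of PC9 were parental and scrambled libraries, so line and kind of control cannot be told apart. The single H1975 control had 48.6 CPM of IFIT1, against 0.667 and 0.666 CPM in parental and scrambled PC9 (6.13 ± 0.55, adjusted p = 0.000567). IFI27 was at 47.6 CPM in the H1975 control, against 0.159 and 0.298 CPM in PC9 (7.65 ± 0.65, adjusted p = 0.000487). IFITM2 was at 77.7 CPM in the H1975 control, against 0.124 and 0.0546 CPM in PC9, which rested on 3.34 and 1.23 counts (9.78 ± 0.69, adjusted p = 0.000360). IFITM2 set H1975 apart from HCC827 too, with 70.3 to 80.8 CPM in the 3 H1975 libraries and 1.09 to 3.30 CPM in the 6 HCC827 libraries. The transcription factors split: IRF9 was higher in H1975 (27.6 CPM in its control, 3.25 ± 0.46, adjusted p = 0.00314), while STAT2, IRF7 and IRF1 did not pass. STAT2 was at 27.9 CPM in the H1975 control, against 14.7 and 25.7 CPM in PC9 (0.42 ± 0.51).

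In AALE against PC9, 5 of the 40 were higher and 4 lower, where 6.13% of all genes were higher and 7.08% lower, and the median was -0.06. The counts and the median moved with the fit: DESeq2 called 15 (beside 3488 of all 20949 genes), limma voom 5 (beside 2709), and the test with no filter on low counts 14 (beside 4194 of 35428). The line coefficients of the 9-library overexpression fit called 29, beside 12249 of 18433 genes, at a median of 0.37, and without parental PC9 the median was 0.15. The members higher in AALE were EPSTI1, IFITM2, IFI27, TRIM22 and IFIT5. EPSTI1, an interferon-induced epithelial-stromal gene, was at 9.29 CPM in scrambled AALE, against 0.890 and 0.666 CPM in PC9 (3.28 ± 0.51, adjusted p = 0.00491). IFITM2 was at 2.02 CPM in scrambled AALE, against 0.124 and 0.0546 CPM in PC9 (4.28 ± 0.69, adjusted p = 0.00589), and IFI27 at 3.33 CPM, against 0.159 and 0.298 CPM (3.58 ± 0.67, adjusted p = 0.0103). All 3 were low in PC9 and, outside EPSTI1, at a few counts there. The members lower in AALE were BST2, MX2, IFI35 and IFITM3. BST2 was at 0.147 CPM in scrambled AALE, on 3 counts, against 3.11 and 3.86 CPM in PC9 (-4.78 ± 0.68, adjusted p = 0.00330). MX2, which blocks nuclear entry of retroviruses, was at 1.20 CPM, against 28.3 and 20.4 CPM (-4.64 ± 1.08, adjusted p = 0.0250). IFI35 was at 4.49 CPM in AALE, against 13.2 and 27.8 CPM in PC9 (-2.48 ± 0.65, adjusted p = 0.0399). Over all libraries of both lines, AALE lay above PC9 with no overlap for 8 members and below for 8 (27.4% and 19.7% of all genes). AALE was grown in another medium than the tumor lines, and its part in these values cannot be told apart from the line.

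In PC9ER against PC9, 0 of the 40 were higher and 4 lower in edgeR's test, where 1.04% of all genes were higher and 5.18% lower, and the median was -0.02. Here too a knockdown control was set against parental and scrambled libraries, so line and kind of control cannot be told apart. At an unadjusted p under 0.05, 4 were higher and 11 lower, beside 1661 higher and 2835 lower of all 20949 genes. DESeq2 called 1 higher and 8 lower, beside 2560 genes in all, and limma voom called 0 members and 0 genes. Without scrambled HCC827 10 members were called (2 higher, 8 lower), beside 2448 of 20755 genes, and without scrambled PC9 14 were (4 higher, 10 lower), beside 3133 of 20785. PARP14, an ADP-ribosyl transferase, was at 3.22 CPM in the PC9ER control, against 50.9 and 25.4 CPM in PC9 (-3.43 ± 0.60, adjusted p = 0.0182). SAMD9 was at 1.36 CPM in the PC9ER control, against 22.5 and 11.7 CPM in PC9 (-3.51 ± 0.74, adjusted p = 0.0308), and DDX60, a helper of the RNA sensors, at 1.92 CPM, against 26.6 and 11.2 CPM (-3.16 ± 0.69, adjusted p = 0.0334). These 3, with TRIM22, were low in the PC9ER library that stood apart by GC content, where the difference from PC9 followed the GC of the 40 members too (Spearman's rho of 0.695 over the 40). The miR-21 knockdown library of PC9ER had 39.9 CPM of PARP14, 35.8 of SAMD9 and 20.8 of DDX60, all within or above the range of the PC9 controls. With that library in place of the PC9ER control, an alternative chosen after seeing the data, 0 members were called and the median was 0.49. The share of all genes called in that fit is not reported here. Over all libraries of both lines, PC9ER lay above PC9 with no overlap for 3 members and below for 1, BST2 (8.55% and 4.26% of all genes).

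H1975 was set against PC9ER, the other knockdown line, in the same fit. Here 22 of the 40 were higher and 0 lower, where 11.6% of all genes were higher and 9.87% lower, and the median was 2.78. IFITM2 was at 77.7 CPM in the H1975 control and 0.288 CPM in the PC9ER control (7.77 ± 0.84, adjusted p = 0.00160). IFI44 was at 46.1 CPM in H1975 and 1.36 CPM in PC9ER (4.90 ± 0.56, adjusted p = 0.00176), and BST2 at 33.4 CPM in H1975 and 0.805 CPM in PC9ER (5.19 ± 0.61, adjusted p = 0.00189). With the miR-21 knockdown library of PC9ER in place of its control, 14 members were higher and 0 lower and the median was 1.71, and all 3 named genes passed. Calls over all genes in that fit are not reported here, so the 14 cannot be set beside a share.

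The rest of the pathway was read from a list of 45 genes of ligands, receptors, kinases, sensors, adaptors, regulators and further targets. The ligands were at or near the limit of detection. IFNB1 had at most 5 expected counts and was at 0 in 14 libraries, IFNK and the lambda interferons, listed as IL28A, IL28B and IL29, had at most 2, 2, 2 and 5 counts, and IFNE at most 36 counts. None of these 6 ligands exceeded 1.58 CPM in any library. In HCC827 against PC9, 9 of the 39 pathway genes tested were higher and 1 lower, beside 8.25% and 8.84% of all genes. The receptor subunit IFNAR2 was at 40.7 and 38.1 CPM in parental and scrambled HCC827, against 10.3 and 11.6 CPM in PC9 (1.76 ± 0.34, adjusted p = 0.00897). TBK1, the kinase that activates IRF3 below the nucleic acid sensors, was at 210.1 and 249.5 CPM in HCC827, against 38.9 and 20.9 CPM in PC9 (2.86 ± 0.40, adjusted p = 0.00186). TMEM173, the adaptor STING, was at 62.0 and 57.9 CPM in HCC827, against 15.1 and 12.4 CPM in PC9 (2.04 ± 0.33), while MB21D1, the DNA sensor cGAS above it, was lower in HCC827, at 10.0 and 16.7 CPM, against 43.3 and 50.5 CPM (-1.89 ± 0.38, adjusted p = 0.0107). Others higher in HCC827 included SOCS3, SP110, PLSCR1, GBP1 and GBP2. Of the receptor, kinase and adaptor genes that did not pass, IFNAR1 had 0.71 ± 0.31, JAK1 0.40 ± 0.30, TYK2 0.54 ± 0.33, MAVS 0.38 ± 0.32 and IRF3 0.10 ± 0.31. In H1975 against PC9, 2 of the 39 were higher, TMEM173 and SP110, and 3 lower, TLR3 and TNFSF10 among them, beside 5.89% and 6.40% of all genes. In AALE against PC9, 0 were higher and 7 lower (6.13% and 7.08% of all genes), in PC9ER against PC9 1 and 2 (1.04% and 5.18%), and in H1975 against PC9ER 3 and 7 (11.6% and 9.87%). The ISG15-activating enzyme UBA7 was among those lower in AALE, at 1.13 to 1.18 CPM in the 3 AALE libraries and 16.7 to 55.6 CPM in the 6 PC9 libraries.

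In drug-tolerant cells most of the 40 genes lay below parental in HCC827 and above it in PC9. The summed level was 2303 CPM in gefitinib-tolerant, 2717 in osimertinib-tolerant and 5925 in parental HCC827, and 735.4, 811.4 and 523.4 CPM in the same groups of PC9. Both tolerant libraries were thus below the parental one in HCC827 and above it in PC9. As log2 differences of 1 library against 1 (TMM-scaled CPM with a prior count of 2), the 40 had a median of -1.33 with gefitinib and -1.05 with osimertinib in HCC827, and of 0.41 and 0.58 in PC9. In HCC827, 3 members were at least 2-fold higher and 24 at least 2-fold lower with gefitinib (20.5% and 13.6% of the 19837 genes), and 2 and 22 with osimertinib (20.6% and 13.3%). In PC9, 13 were at least 2-fold higher and 0 lower with gefitinib (14.1% and 7.26%), and 13 and 0 with osimertinib (16.1% and 8.91%). With both drugs, 22 members lay below parental in HCC827 and above parental in PC9. The drugs share the parental library of a line, so their values are set side by side only.

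With the lines as replicates, 0 of the 40 passed in edgeR for either drug, as 0% of the 19837 genes did. At an unadjusted p under 0.05, 5 members stood with gefitinib (3 higher, 2 lower), beside 3468 of the 19837 genes, and 4 with osimertinib (3 higher, 1 lower), beside 3924. DESeq2 called 3 members with gefitinib, beside 1345 of the 19837 genes, and 4 with osimertinib, beside 1754, and limma voom called 0 and 0. By unadjusted p the members' shares lie below those of all genes, and by DESeq2 near them. The medians over the lines were -0.58 and -0.41, with 10 positive and 30 negative values for each drug. Their direction rests on single libraries: without parental HCC827 the medians were 0.47 with gefitinib and 0.78 with osimertinib, and with scrambled in place of parental libraries, chosen after seeing the data, 0.15 and 0.32. Without the tolerant HCC827 library of the drug itself they were 0.06 and 0.02. Without parental PC9, 27 members were called with gefitinib and 24 with osimertinib, beside 3528 and 3933 of 21403 genes, at medians of -1.35 and -1.10. The test of the difference between lines, with the drugs as repeats, called 0 of the 40 higher and 19 lower, where 1.92% of all genes were higher and 1.98% lower. The spread in this fit came only from the gefitinib-tolerant against the osimertinib-tolerant library within each line. Its SEs and p-values therefore do not measure how the parental level varies. A negative value here means that the change with tolerance was lower in HCC827 than in PC9. All 40 values were negative, with a median of -1.75 against -0.06 over all genes.

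ISG15 had the smallest p. It was at 80.2 CPM in gefitinib-tolerant, 96.9 in osimertinib-tolerant and 619 in parental HCC827, and at 12.9, 15.4 and 6.34 CPM in the same groups of PC9 (difference of log2 changes -3.90 ± 0.27, edgeR adjusted p = 0.0333). IFIT1 was at 35.3, 48.2 and 129 CPM in gefitinib-tolerant, osimertinib-tolerant and parental HCC827, and at 3.12, 3.65 and 0.667 CPM in PC9 (-3.90 ± 0.36, adjusted p = 0.0333). IRF9 was at 33.8, 43.8 and 116 CPM in gefitinib-tolerant, osimertinib-tolerant and parental HCC827, and at 7.55, 7.73 and 2.93 CPM in PC9 (-2.91 ± 0.28, adjusted p = 0.0333). In each of these genes both tolerant HCC827 libraries were below the parental one and both tolerant PC9 libraries above it. By role, the called members were DHX58 of the 4 sensors, IRF9 and IRF1 of the 4 transcription factors, all 4 OAS genes, IFIT1, IFIT2 and IFIT3 of the 4 IFIT genes, IFITM1, MX1, ISG15, HERC6 and USP18, IFI6, IFI35 and IFI44 of the 5 IFI genes, and XAF1. Their differences of log2 changes ran from -3.90 to -1.70. OAS3 passed without opposite directions, at 113 CPM in gefitinib-tolerant, 123 in osimertinib-tolerant and 805 in parental HCC827, and 61.8, 64.6 and 98.9 CPM in PC9 (-2.06 ± 0.21). USP18, also called, was likewise below parental in both lines with both drugs. HERC6 lay slightly below parental PC9 with gefitinib and above it with osimertinib (TMM-scaled log2 differences of -0.06 and 0.35).

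**Figure D3:**
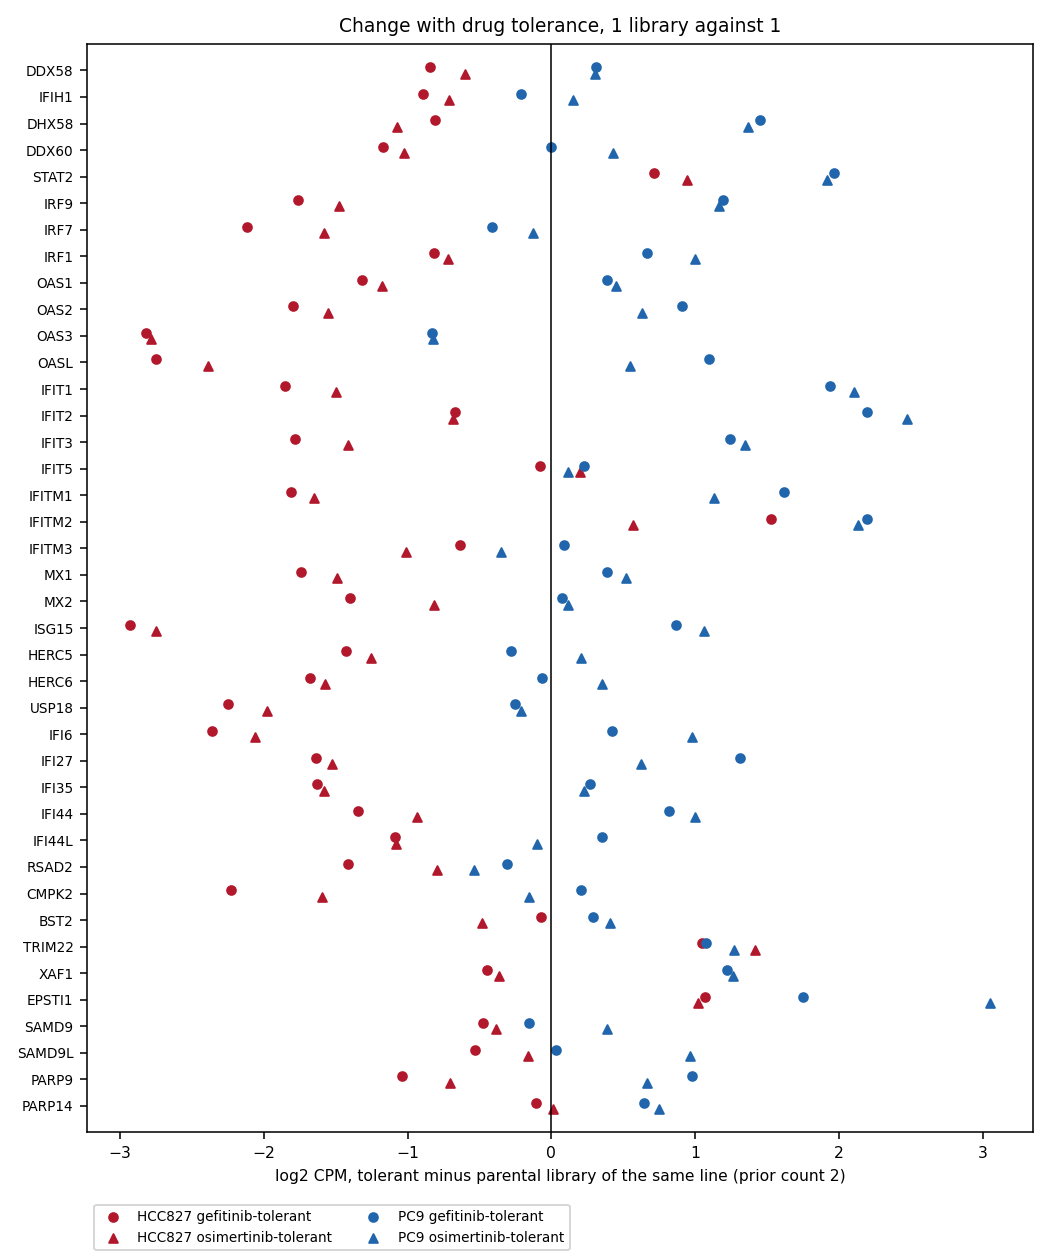
Change of each of the 40 genes with drug tolerance, as the log2 CPM of the tolerant minus the parental library of the same line on the x axis and genes down the y axis; red is HCC827, blue is PC9, circles are gefitinib and triangles osimertinib, 1 library against 1. Most red points lie left of 0 and most blue points right of it, with medians of -1.33 and -1.05 in HCC827 and 0.41 and 0.58 in PC9, and STAT2, IFITM2, TRIM22 and EPSTI1 lie right of 0 in both lines.

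A few members lay on the same side of parental in both lines. STAT2, IFITM2, TRIM22 and EPSTI1 were above parental with both drugs in both lines, and IRF7, OAS3, RSAD2 and USP18 were below it, all on the TMM scale (without that scaling IRF7 was at 8.10 CPM in osimertinib-tolerant and 7.64 CPM in parental PC9). STAT2 was at 275 CPM in gefitinib-tolerant, 345 in osimertinib-tolerant and 169.8 in parental HCC827, and at 63.9, 64.3 and 14.7 CPM in PC9 (1.27 ± 0.39 with gefitinib, unadjusted p = 0.0207 in edgeR, adjusted p = 0.231). TRIM22, an antiviral ubiquitin ligase, had 34.0, 46.9 and 16.6 CPM in HCC827, and in PC9 18.7, 22.3 and 7.94 CPM, in the order gefitinib-tolerant, osimertinib-tolerant and parental (1.32 ± 0.24 with osimertinib, edgeR adjusted p = 0.170). STAT2 and its partner IRF9 lay on opposite sides of parental in HCC827, where STAT2 was above parental and IRF9 below it with both drugs. The members of largest fold change over the lines were OAS3 with -1.99 ± 0.60 and IFITM2 with 1.93 ± 0.69 for gefitinib, and EPSTI1 with 2.01 ± 0.58 and OAS3 with -1.97 ± 0.60 for osimertinib, and none of them passed. EPSTI1 was at 40.1 CPM in gefitinib-tolerant, 41.4 in osimertinib-tolerant and 19.3 in parental HCC827, and at 3.55, 9.26 and 0.890 CPM in PC9. In the same order, IFITM2 had 3.30, 1.77 and 1.09 CPM in HCC827, against 0.889, 0.903 and 0.124 CPM in PC9, with 3.34 counts behind the last value.

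The difference between lines rests on 1 parental library in each. The parental HCC827 library lay above the scrambled library of the same line for 37 of the 40, at least 2-fold for 20, with a median log2 difference of 1.02 against -0.06 over all genes, and in PC9 the median was 0.14 with 24 of 40 higher. Against the scrambled library, the tolerant HCC827 libraries had a median of -0.27 with gefitinib and -0.17 with osimertinib. There 4 and 5 members were at least 2-fold higher, and 7 and 3 at least 2-fold lower. The tolerant PC9 libraries had medians of 0.75 and 0.98 against the scrambled one, with 17 and 18 at least 2-fold higher and 1 and 1 lower. Shares of all genes in these pairs are not reported here. With the scrambled libraries in place of the parental ones, an alternative chosen after seeing the data, the test between lines called 0 of the 40, with a median of -1.0003, and ISG15 had -0.42, IFIT1 -2.83 and IRF9 -2.12 (edgeR adjusted p of 0.411, 0.0526 and 0.0535). With both kinds of control, 6 were called lower and the median was -1.59. The scrambled cells carried a lentivirus and the parental ones did not, so virus and library cannot be told apart. With no filter on low counts 0 members were called. The 19 calls also did not hold without any 1 of the 4 tolerant libraries, where 1 line keeps a single one. Calls over all genes in these alternative fits are not reported here, so their counts do not set the members apart from other genes. The log2 changes with tolerance in HCC827 also followed GC content, with Spearman's rho of -0.26 over all genes for both drugs and of -0.39 with gefitinib and -0.53 with osimertinib over the 40, and its part in the result was not tested. In PC9 the values of rho were 0.08 and 0.09 over all genes, and 0.08 and -0.01 over the 40.

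Markers of other cell types also differed between the tolerant and parental libraries. The 4 fibroblast markers summed to 87.1 CPM in gefitinib-tolerant, 132.5 in osimertinib-tolerant and 15.2 in parental HCC827, and to 28.0, 78.3 and 21.2 CPM in PC9. Nearly all of each sum was COL1A1, at 85.7, 131 and 14.7 CPM in HCC827 in the same order, while COL1A2 was at 0, 0.172 and 0.308 CPM and PDGFRB under 0.5 CPM in every HCC827 library. The 4 basal airway markers summed to 82.5, 79.5 and 6.64 CPM in HCC827, where KRT17 was at 80.6, 77.7 and 1.58 CPM, and to 69.4, 240.5 and 424 CPM in PC9. The 4 alveolar markers had 99.1, 168 and 293 CPM in HCC827, and the 5 leukocyte markers 0.911, 1.55 and 7.30 CPM in HCC827 and 19.6, 4.12 and 2.14 CPM in PC9. Of the leukocyte markers, CD14 stood at 14.3 CPM and PTPRC at 2.83 CPM in gefitinib-tolerant PC9, against 1.85 and 0.0371 CPM in parental PC9. The part of these markers in the result was not tested.

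Of the 40 pathway genes tested, 1 was higher and 3 lower in the test between lines, beside 1.92% and 1.98% of all genes. TMEM173 was at 25.6, 24.3 and 62.0 CPM in gefitinib-tolerant, osimertinib-tolerant and parental HCC827, and at 33.3, 30.7 and 15.1 CPM in PC9 (-2.33 ± 0.25, edgeR adjusted p = 0.0333). TBK1 moved the other way, at 475, 487 and 210.1 CPM in HCC827 and 35.5, 35.7 and 38.9 CPM in PC9 in the same order (1.39 ± 0.22, adjusted p = 0.0428). UBA7 and UBE2L6, the activating and conjugating enzymes of ISG15, were the other 2 lower genes. For either drug over both lines, 0 of the 40 pathway genes tested passed.

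With miR-147b overexpression the 40 genes were mostly higher in HCC827 and AALE. Their summed level was 5301 CPM with miR-147b and 2507 CPM with the scrambled control in HCC827, 732.4 and 517.4 CPM in AALE, and 454.5 and 461.9 CPM in PC9. All 40 were higher with miR-147b in HCC827, 32 of 40 in AALE and 23 of 40 in PC9, at medians of 0.79, 0.99 and 0.05. In HCC827, 17 were at least 2-fold higher and 0 lower (3.75% and 1.33% of the 18433 genes), in AALE 20 and 0 (3.61% and 3.84%), and in PC9 1 and 2 (2.56% and 2.79%). The 11 genes at least 2-fold higher in both HCC827 and AALE were CMPK2, IFI44L, IFI6, IFIT1, IFITM1, ISG15, MX1, MX2, OAS2, RSAD2 and XAF1. Among the lines with miR-147b overexpression, PC9 also had the least of the MIR147B row, and its part in the result was not tested. Parental HCC827, where the MIR147B row was at 0, summed to 5925 CPM over the 40. It lay above the scrambled library by a median log2 difference of 1.02, with 20 members at least 2-fold higher (9.89% of genes). The summed level with miR-147b thus lay between those of the scrambled and parental libraries of HCC827. The 4 basal airway markers summed to 11680 CPM with miR-147b and 5893 CPM with the scrambled control in AALE, where KRT5 was at 4355 and 1590 CPM, to 19.6 and 3.42 CPM in HCC827, where TP63 was at 18.7 and 3.17 CPM, and to 167.9 and 162.5 CPM in PC9. Their part in the result was not tested.

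Over the 3 lines, 0 of the 40 passed in edgeR, as 0.00543% of all genes did. At an unadjusted p under 0.05, 25 of the 40 were higher and 0 lower, against 564 higher and 264 lower of the 18433 genes. DESeq2 called 2 members among 7 genes, and limma voom 1 among 4. The median log2 fold change was 0.75, with 39 of 40 positive. Without the PC9 library with miR-147b 6 members passed, among 14 of 19133 genes, and with no filter on low counts 21 did, among 266 of 36676. IFI44L, a relative of IFI44, was at 158 CPM with miR-147b and 50.1 CPM with the scrambled control in HCC827, at 3.31 and 0.906 CPM in AALE, and at 0.279 and 0.222 CPM in PC9 (1.67 ± 0.22, edgeR adjusted p = 0.202, n = 3 lines). It passed in DESeq2 (adjusted p = 0.00541) and limma voom (adjusted p = 0.0355). CMPK2, a mitochondrial nucleotide kinase, was at 10.2 and 2.55 CPM in HCC827, 0.306 and 0.0983 CPM in AALE and 0.0927 and 0.0444 CPM in PC9 (1.76 ± 0.51, adjusted p = 0.921), where the AALE values are 7 and 2 counts and the PC9 values 2 and 1. IFIT1 was at 142 CPM with miR-147b and 59.8 CPM with the scrambled control in HCC827, at 15.0 and 3.04 CPM in AALE and at 0.974 and 0.666 CPM in PC9. ISG15 was at 374 and 164 CPM in HCC827 and 101 and 33.1 CPM in AALE, with miR-147b given first, but at 13.4 and 19.2 CPM in PC9. The direction of ISG15 thus differed in PC9 from that in the other lines.

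By role, the AALE pair spread widely. The 4 IFIT genes had a median log2 difference of 2.23, the pair of MX genes 1.66 and the 4 OAS genes 1.21, while the 4 transcription factors had -0.12. OASL, an OAS relative without synthetase activity, was the highest of the 40 there, at 16.7 CPM with miR-147b and 2.01 CPM with the scrambled control. STAT2 was at 32.2 and 39.1 CPM and IRF1 at 25.6 and 29.6 CPM in the same AALE libraries, so these factors were no higher with miR-147b. In HCC827 the transcription factors had a median of 0.53, with STAT2 at 135 and 87.3 CPM and IRF7 at 87.3 and 39.6 CPM. Of the 38 pathway genes tested 0 passed, and IFNAR1 had -0.04 ± 0.10, IFNAR2 0.11 ± 0.10 and JAK1 0.04 ± 0.10.

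With miR-21 overexpression 0 of the 40 passed in edgeR, as 0% of all genes did, with 0 at an unadjusted p under 0.05 and 0 in DESeq2 and limma voom. The summed level was 2558 CPM with miR-21 and 2507 CPM with the scrambled control in HCC827, 486.8 and 517.4 CPM in AALE and 427.2 and 461.9 CPM in PC9. The medians were -0.03 in HCC827, -0.07 in AALE and -0.08 in PC9, and 0 were at least 2-fold higher and 0 lower in HCC827 (2.66% and 2.79% of genes), 1 and 0 in AALE (2.39% and 1.63%) and 2 and 2 in PC9 (2.30% and 3.65%). The largest changes with a mean of at least 1 CPM were those of IFITM2 (0.62 ± 0.36) and DHX58, the sensor regulator LGP2 (-0.30 ± 0.18). IFITM2 was at 2.43 CPM with miR-21 and 1.76 CPM with the scrambled control in HCC827, at 2.88 and 2.02 CPM in AALE and at 0.213 and 0.0546 CPM in PC9. DHX58 was at 15.9 and 21.97 CPM in HCC827, 3.95 and 4.18 CPM in AALE and 7.26 and 8.93 CPM in PC9, lower with miR-21 in each line and within the spread of the fit.

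**Figure D4:**
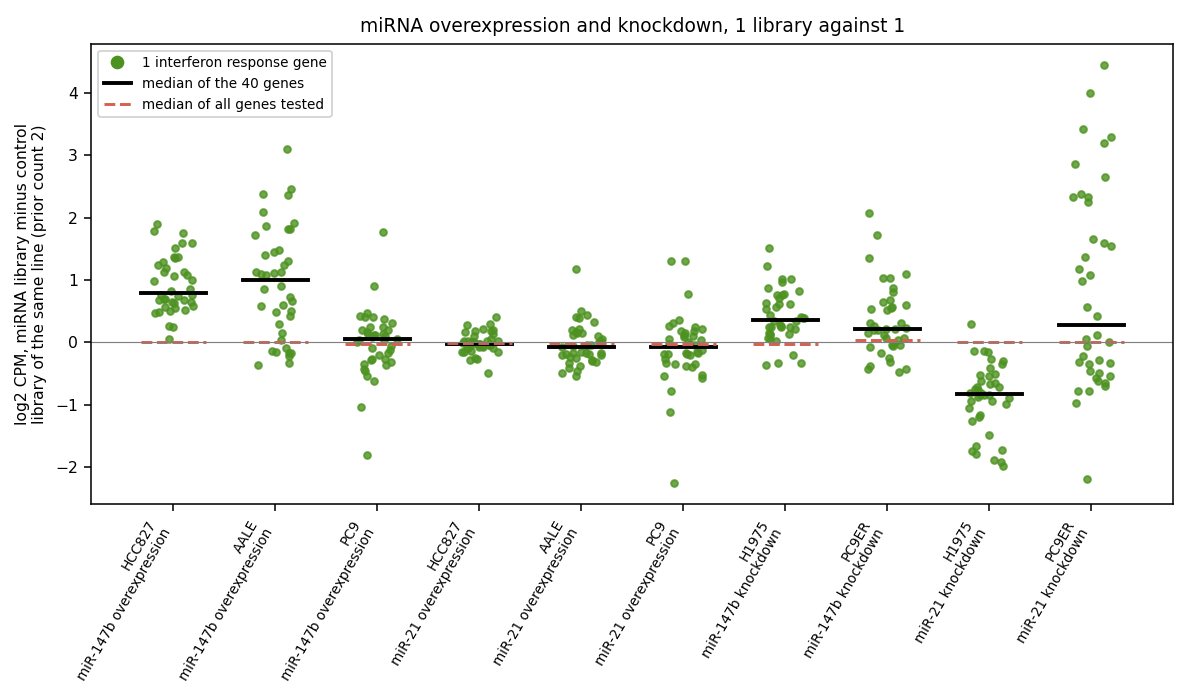
Change of the 40 genes with miR-147b or miR-21 overexpression and knockdown, as the log2 CPM of the microRNA library minus the control library of the same line on the y axis; each green point is 1 gene, black bars are medians of the 40 and dashed bars medians of all genes tested, 1 library against 1. With miR-147b overexpression the medians are 0.79 in HCC827, 0.99 in AALE and 0.05 in PC9, with miR-21 knockdown -0.83 in H1975, and the points of PC9ER with miR-21 knockdown spread the widest.

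With miR-147b knockdown 0 of the 40 passed in edgeR, as 0% of all genes did, with 1 at an unadjusted p under 0.05 (146 of the 17723 genes) and 0 in DESeq2 and limma voom. The summed level was 2672 CPM with the knockdown and 1852 CPM in the control of H1975, and 559.3 and 518.1 CPM in PC9ER. In H1975, 36 of the 40 were higher with the knockdown, 4 of them at least 2-fold and 0 lower by as much (2.04% and 3.89% of the 17723 genes), with a median of 0.37. In PC9ER 28 were higher, 6 at least 2-fold and 0 lower by as much (5.44% and 2.65%), with a median of 0.21. Over both lines 39 of 40 were positive, at a median of 0.35. The members were thus mostly higher than control with miR-147b overexpression in AALE and HCC827 and with its knockdown in H1975, which are different lines. IFI27 was at 135 CPM with the knockdown and 47.6 CPM in the control of H1975, and at 0.164 and 0.124 CPM in PC9ER, on 3.02 and 2 counts (1.29 ± 0.52, unadjusted p = 0.0481 in edgeR, adjusted p = 1). XAF1, a promoter of cell death, was at 61.3 and 31.6 CPM in H1975 and 4.30 and 2.66 CPM in PC9ER (0.88 ± 0.98). Both were higher with the knockdown in either line, and neither passed. Without the H1975 knockdown library the fitted values were -0.065 for IFI27 and -0.69 for XAF1 and the median of the 40 was -0.10. That fit also draws on the miR-21 knockdown libraries. Its signs differ from those of the PC9ER pair taken alone, where both genes and the median were higher with the knockdown.

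With miR-21 knockdown 0 of the 40 passed in edgeR, as 0% of all genes did, with 2 at an unadjusted p under 0.05, both lower (183 of the 17723 genes were lower), and 0 in DESeq2 and limma voom. In H1975 the summed level was 1182 CPM with the knockdown and 1852 CPM in the control, and 39 of the 40 were lower, 12 of them at least 2-fold and 0 higher by as much (2.72% lower and 2.92% higher among the 17723 genes), at a median of -0.83. IRF1 was the one member higher, at 48.3 CPM with the knockdown and 39.8 CPM in the control. MX1 was at 14.6 and 58.3 CPM, IFIT1 at 14.6 and 48.6 CPM and OAS2 at 10.4 and 35.2 CPM in these H1975 libraries, knockdown before control. In PC9ER the summed level was 683.1 CPM with the knockdown and 518.1 CPM in the control, 17 members were at least 2-fold higher and 1 lower (23.4% and 5.32% of genes), and the median was 0.27. The members of largest fold change were SAMD9 (2.40 ± 1.43) and its neighbor SAMD9L (1.87 ± 1.62). SAMD9 was at 23.7 CPM with the knockdown and 42.9 CPM in the control of H1975, and at 35.8 and 1.36 CPM in PC9ER. SAMD9L was at 1.73 and 6.65 CPM in H1975 and at 15.0 and 0.743 CPM in PC9ER. Both were lower with the knockdown in H1975 and higher in PC9ER, by values in which the PC9ER control was far below the 11.7 to 34.1 CPM of SAMD9 and the 3.72 to 17.8 CPM of SAMD9L in PC9. Without the PC9ER miR-21 knockdown library the fitted values were -0.78 for SAMD9 and -1.88 for SAMD9L. Without the H1975 miR-21 knockdown library 16 members were called (14 higher, 2 lower), beside 5595 of 18594 genes, at a median of 0.34, and without the H1975 control 5 were, all higher, beside 837 of 18641.

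In PC9ER the change with miR-21 knockdown followed GC content, with Spearman's rho of -0.65 over all genes and -0.89 over the 40. The 17 members at least 2-fold higher had a median GC of 41.8% (36.1% to 46.3%), and the other 23 had 52.5% (42.3% to 66.8%). The part of GC content in these values was not tested. For miR-147b knockdown in PC9ER rho was -0.36 over all genes and -0.58 over the 40, and for miR-147b overexpression in PC9 -0.51 and -0.59. For miR-147b overexpression it was -0.05 and -0.03 in HCC827 and 0.02 and -0.06 in AALE, the lines where the members were higher, and for miR-21 knockdown in H1975 0.30 and 0.44.

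**Figure D5:**
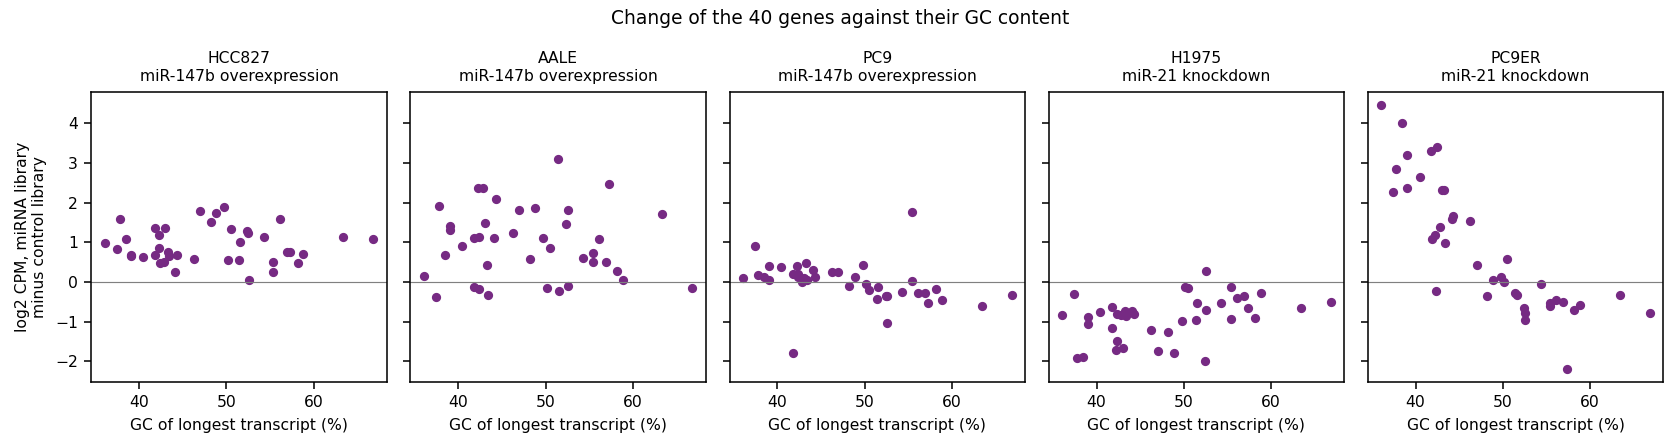
Change of the 40 genes against GC content, with the GC percent of the longest transcript on the x axis and the log2 CPM of the microRNA library minus the control library of the same line on the y axis, 1 point per gene in each of 5 pairs of libraries. The points fall with GC in PC9ER with miR-21 knockdown (rho of -0.89) and show no slope in HCC827 and AALE with miR-147b overexpression (rho of -0.03 and -0.06).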

How the data were processed

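The data are TruSeq messenger RNA libraries per the labels' protocols. Expected counts, in 3 tables, were deposited by the authors, who made them with Bowtie2 and RSEM on GRCh37 per the submitters' processing notes, beside read totals of 17932024 to 33129732 in each library. No source used here gives tool versions, the annotation release or the use of strand in counting. Non-whole values made up 64.3% of those above 0, and all were rounded for tests. CPM divides by a library's summed expected counts.

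Genes were tested with edgeR's quasi-likelihood test (4.0.16, R 4.3.3) after TMM scaling and filterByExpr, with Benjamini-Hochberg adjustment over all genes tested at 0.05. Separate fits were made for the 6 tolerance, 9 overexpression and 6 knockdown libraries, with cell line as a block. The 7 control libraries were fitted with 1 coefficient per line and no block. Tolerance between lines was a further fit of the 6 tolerance libraries, with line, tolerance and their interaction. DESeq2 (1.42.0) and limma voom (3.58.1) were alternatives. Libraries pair by cell line, which the labels name, and the deviations of same-line libraries from their group means correlated at 0.71 to 0.86, 0.90 to 0.92 and 0.80 to 0.93 in the first 3 fits. The fits were also run on simulated counts, drawn from a shared gene profile with no differences between lines beyond the planted changes. That run checks the code, not how well the fits suit these libraries. Values in every library are given for the 3 members of smallest p per direction that passed in a comparison, or else the 2 of largest fold change with at least 1 CPM, and for 14 listed members of each role. Members and lists were chosen with earlier results of these data known. GC content comes from GENCODE 29 transcripts (GRCh38), and promoters and microRNAs from RefSeq (GRCh38.p14). Of 2 identifiers named IFNAR2, the one with more counts was used. Depth limits cover counting error only. Some genes of the pathway list are not reported here by name.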

Additional observations from a re-analysis of the deposited data

Results flagged for a closer look

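The change with drug tolerance differed between HCC827 and PC9 for 19 of the 40 genes in edgeR's test of the interaction, each lower in HCC827. The named genes of smallest p were ISG15 with a difference of log2 changes of -3.90, IFIT1 with -3.90 and IRF9 with -2.91 (adjusted p = 0.0333 for each in edgeR). Each rests on 1 parental library per line, and the spread behind the p-values came only from the tolerant libraries. Against scrambled libraries in place of parental ones 0 of the 40 passed.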

How the results depend on the processing

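Scaling by DESeq2 size factors changed no count of called members by over 1.5 times. DESeq2's test called 3 members for gefitinib and 4 for osimertinib tolerance, 2 for miR-147b overexpression, 15 for AALE against PC9 and 9 for PC9ER against PC9. Limma voom called 1, 5 and 0 in the last 3, where the PC9ER median became 0.15. With no filter on low counts 0 were called for tolerance between lines, 21 for miR-147b overexpression, 14 for AALE and 13 for PC9ER against PC9. For PC9ER the share of all genes called in that fit is not reported here, so the 13 do not set the members apart from other genes. Line coefficients of the overexpression fit gave 29 calls and a median of 0.37 for AALE against PC9. Without the replicate block 0 members were called in the tolerance, overexpression and knockdown comparisons, as with it.

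Leaving out 1 library gave 0 to 27 calls and medians of -1.35 to 0.47 for gefitinib, and 0 to 24 calls and -1.10 to 0.78 for osimertinib, with the most calls without parental PC9. Without parental HCC827 the medians were 0.47 and 0.78, and without the tolerant HCC827 library of the same drug 0.06 and 0.02. For tolerance between lines it gave 0 calls each time. It gave 0 to 6 calls for miR-147b overexpression, medians of -0.18 to 0.10 for miR-21 overexpression (also 0.04 and 0.02) and of -0.10 to 0.95 for miR-147b knockdown, and 0 to 16 calls and medians of -0.82 to 0.34 for miR-21 knockdown, with 16 without the H1975 knockdown and 5 without the H1975 control. Medians of AALE against PC9 ran from -0.29 to 0.15, and PC9ER against PC9 had 3 to 14 calls, with 10 without scrambled HCC827 and 14 without scrambled PC9. In miR-147b knockdown IFI27 ran from -0.065 to 1.66 and XAF1 from -0.69 to 2.11, both lowest without the H1975 knockdown, and in miR-21 knockdown SAMD9 ran from -0.78 to 4.23 and SAMD9L from -1.88 to 3.93, both lowest without the PC9ER knockdown.

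Alternatives chosen after seeing the data gave, with scrambled in place of parental libraries, 0 calls between lines and medians of 0.15 for gefitinib and 0.32 for osimertinib, and with both controls 6 calls between lines and 1 for osimertinib. With the miR-21 knockdown library as the PC9ER control, PC9ER against PC9 had 0 calls, a median of 0.49 and SAMD9 at 0.92, and H1975 against PC9ER 14 calls. Shares of all genes called in these alternatives are not reported here. The cause of these shifts was not tested. Fits without a parental library for tolerance between lines, and without the lone control of a line, gave no value.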

Other observations

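TBK1, a kinase below the nucleic acid sensors, was at 210.1 to 487 CPM in the 6 HCC827 libraries, 30.5 to 33.9 CPM in H1975, 3.96 to 33.8 CPM in PC9ER, 30.2 to 34.6 CPM in AALE and 20.6 to 38.9 CPM in PC9. HCC827 thus stood above every other line with no overlap. The interferon-induced chemokines CXCL10 and CXCL11 were at most 2.58 and 1.25 CPM, both in HCC827, and at most 0.481 CPM in the other lines. The viral RNA sensor TLR3 was at 4.55 to 21.4 CPM in HCC827 and 4.80 to 20.8 CPM in PC9, but at 0.117 to 0.399 CPM in H1975.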
